A study of Mus musculus with 8 samples.

Results

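Zinc enters the cytosol through transporters of the SLC39 (ZIP) family and leaves it, towards the outside or into vesicles, through those of the SLC30 (ZnT) family. Metallothioneins are small cysteine-rich proteins that bind zinc in the cytosol, and Mtf1, a zinc-sensing transcription factor, drives their genes through short DNA motifs called metal response elements. Paneth cells, the antimicrobial secretory cells of the small intestinal crypts, are known for the zinc stored in their granules. The 10 genes described here were given by name as 2 metallothioneins (Mt1 and Mt2), Mtf1, 4 SLC30 genes (Slc30a1, Slc30a2, Slc30a4 and Slc30a7) and 3 SLC39 genes (Slc39a4, Slc39a5 and Slc39a14). Each was found once among the 55414 Ensembl gene IDs of the count table, and all 10 passed the filter on low counts.

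RNA-seq counts came from Paneth cells that were purified on a cell sorter from the small intestine of wild-type mice, 3 hours after injection of phosphate-buffered saline (PBS, the control) or of tumor necrosis factor (TNF, an inflammatory cytokine). There were 4 libraries per group. The study's methods name C57BL/6J mice, and its results describe samples of cells from individual mice. The legend of its supplementary workflow figure says that sorted cells were pooled. The study's text says that its datasets hold animals of both sexes, and the sources used here do not give the sex of each library, the dose or the age. The comparison of TNF with PBS asks how this cytokine changes Paneth cell gene expression.

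The libraries held 23824717 to 32576077 counts. TNF replicate 4 stood apart, with 51.4% of its counts on alpha-defensin (Defa) genes against 32 to 37.9% in the other 7 libraries, and with a TMM scaling factor of 0.448 against 0.995 to 1.36. Values below are normalized CPM, the count of a gene per 1000000 counts of the TMM-scaled library size, and results that rest on TNF replicate 4 are also given without it. The defining Paneth cell markers were abundant in all libraries, their 6 genes summing to 270000 to 395000 normalized CPM in PBS and 338000 to 1030000 in TNF, or to 393000 without TNF replicate 4, and 1 of them, Pla2g2a, was called higher (edgeR adjusted p under 0.05). The 8 enterocyte markers, from the cells in which Slc39a4 and Slc39a5 are best known, summed to 50.8 to 73.8 in PBS and 39.2 to 87.7 in TNF, or to 52.2 without TNF replicate 4. One of them, Apoa4, was called lower (log2 fold change -3.94, edgeR adjusted p 0.00112), and Lct was at -2.57 (adjusted p 0.0501). Of 8 immune markers Cd3e, Cd79a and Adgre1 had 0 counts in every library, and the summed list was at 9.89 to 14.6 in PBS and 14 to 71.4 in TNF, or to 16.6 without TNF replicate 4, with 1 marker, Cd52, called higher. The 5 stroma markers summed to 0.223 to 0.452 in PBS and 1.23 to 1.7 in TNF, without overlap, and 1 of them, Vim, was called higher. The 5 goblet cell markers summed to 2900 to 4900 in PBS and 4860 to 6650 in TNF (5910 to 6650 without TNF replicate 4, above every PBS library), but they did not move together, as Muc2 was called higher and Fcgbp and Clca1 were called lower. Clca1 was at 554 in PBS replicate 1 against 41.1 to 44.0 in the other PBS libraries and 24.0 to 42.2 in TNF. The part of these other cell types in the zinc gene results was not tested. In sorted bulk samples, fewer cells of a type and less RNA per cell cannot be told apart.

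After TNF, both metallothionein genes were higher, Mtf1, Slc30a4, Slc30a7 and Slc39a4 were higher by smaller folds, and Slc30a2 and Slc39a5 were lower. In all, 8 of the 10 genes were called, that is, they had an adjusted p under 0.05 in edgeR's quasi-likelihood fit (Benjamini-Hochberg, every tested gene included). Among all 13368 genes tested, 43% were called, 23.4% as higher and 19.6% as lower. Of the 10 zinc genes 6 were called higher and 2 lower, and the median log2 fold change was 0.42 beside 0.03 over all genes. The normalized CPM of the groups did not overlap for 7 of the 10, against 42.1% of all genes. Only Mt1 and Mt2 changed by more than 2-fold.

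**Figure D1:**
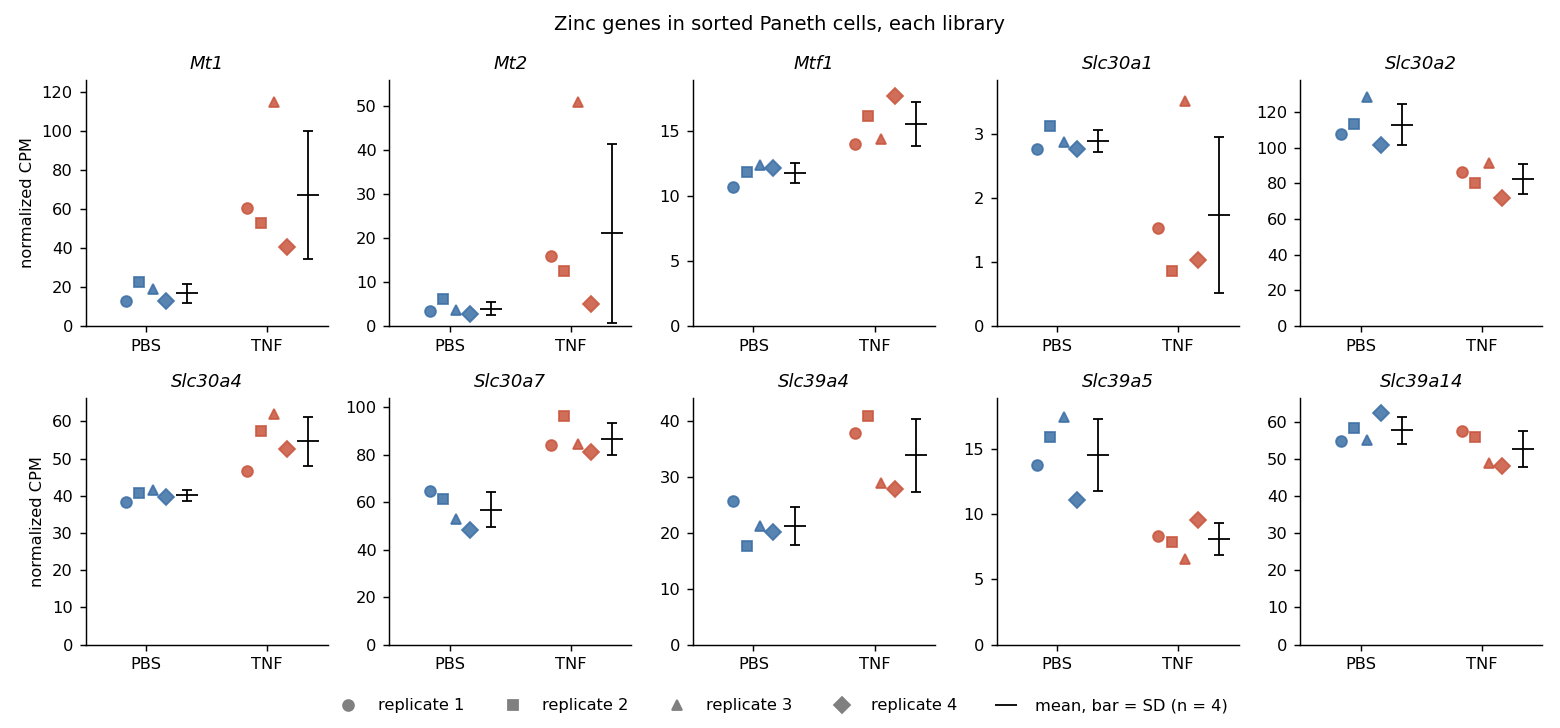
Normalized CPM (vertical axes, starting at 0) of the 10 zinc genes in each PBS (blue) and TNF (red) library, with marker shapes for replicates 1 to 4 and black bars for the mean and SD (n = 4). Mt1, Mtf1, Slc30a4, Slc30a7 and Slc39a4 lay higher in every TNF library than in any PBS library, Slc30a2 and Slc39a5 lay lower, and the groups overlapped for Mt2, Slc30a1 and Slc39a14.

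Mt1 and Mt2 are neighbours on chromosome 8 (GRCm39), on the same strand, with Mt2 (ENSMUSG00000031762) at 94898819 to 94900207 and Mt1 (ENSMUSG00000031765) at 94905710 to 94906955. Slc30a1 (ENSMUSG00000037434, chromosome 1, 191638808 to 191645361), the exporter of zinc at the plasma membrane, is like them a textbook target of Mtf1. The metal response element cores of these 3 genes are shown because Mtf1 is known to act through them. A search of both strands for TGCGCNC or TGCACNC was made in the 250 bases before the most downstream annotated start of each protein-coding gene. Mt1 had 5 cores in this window, and at least 5 were found in 0.0744% of the 21519 windows searched. Mt2 had 2 (at least 2 in 5.17% of windows) and Slc30a1 had 1 (at least 1 in 21.8%). The other 7 zinc genes had no match in their windows. This window was chosen after the sequences were seen. In the 250 bases before the start of the canonical transcript, Mt1, Slc30a1 and Slc39a5 had 1 core each (at least 1 in 21.9% of windows) and Mt2 had 2 (at least 2 in 4.83%). The Mt1 and Mt2 cores of that window are among those printed here, whereas its Slc30a1 core (chr1:191638602-191638620) and its Slc39a5 core (chr10:128237210-128237228) are other sites and are not printed. Each core of the window before the most downstream start is printed in capitals with 6 bases on either side, 5′ to 3′ on the strand of the gene, in build GRCm39.
Mt1, chr8:94905688-94905706: ccgctgTGCACACtggcgc
Mt1, chr8:94905713-94905731: gagctcTGCACTCcgcccg
Mt1, chr8:94905731-94905749: gaaaagTGCGCTCggctct
Mt1, chr8:94905795-94905813: cctgctGGGTGCAaaccct
Mt1, chr8:94905809-94905827: acccttTGCGCCCggactc
Mt2, chr8:94899017-94899035: cgcctcTGCACCCggcccc
Mt2, chr8:94899112-94899130: acccttTGCGCTCagctcc
Slc30a1, chr1:191638844-191638862: ggttccGAGTGCAaagcaa
The cores of Mt1 ended 48 to 169 bases before that start, those of Mt2 76 and 171 bases before it, and that of Slc30a1 28 bases before it. All but the first Mt1 core lie inside the annotated genes, upstream of that start. GGGTGCA in Mt1 and GAGTGCA in Slc30a1 are matches on the opposite strand. These matches are letters in a window and do not show binding. A second motif of the STAT type, TTCNNNGAA, was found once, in the window of Slc30a2 (7.32% of all windows), and not in those of the other 9.

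Mt1 was at 12.8, 22.5, 18.9 and 12.9 normalized CPM in PBS replicates 1 to 4 and at 60.6, 52.7, 115 and 40.7 in TNF replicates 1 to 4. Every TNF library was above every PBS library, and TNF replicate 3 was the highest by far. The mean went from 16.8 ± 4.79 to 67.3 ± 33.0 (SD, n = 4), a 4.03-fold rise. On the log2 scale this was 2.01 with an SE of 0.32 (edgeR adjusted p 0.000498). This was a larger change than that of 94.9% of all tested genes, counted without sign. The rise was kept in each of 17 alternative fits, at log2 values of 1.62 to 2.20, and was 2.20 without TNF replicate 4 (edgeR adjusted p 4.89e-05). As plain CPM, without TMM factors, TNF replicate 4 was at 18.2 and so within the PBS range of 16.1 to 23.7.

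Mt2 was at 3.46, 6.13, 3.55 and 2.62 normalized CPM in PBS and at 16.0, 12.6, 50.8 and 4.90 in TNF. TNF replicates 1, 2 and 3 lay above all PBS libraries, and TNF replicate 4 lay below PBS replicate 2. The mean went from 3.94 ± 1.52 to 21.1 ± 20.4 (SD, n = 4). This 5.45-fold rise was 2.45 on the log2 scale with an SE of 0.59 (edgeR adjusted p 0.00634). Between TNF libraries Mt2 varied 10.4-fold, against 2.83-fold for Mt1. Without TNF replicate 3 the TNF mean was 11.2 ± 5.68 (n = 3) and the log2 fold change 1.54, which was still called (edgeR adjusted p 0.00942). Leaving out TNF replicate 4 instead gave 2.78.

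The 2 metallothioneins were compared within libraries, where scaling plays no part. Mt1 made up 78.6 to 84.2% of their summed counts in PBS, and 79.1, 80.7, 69.4 and 89.3% in TNF replicates 1 to 4. The exact 95% Clopper-Pearson intervals of the last pair were 68.1 to 70.7% and 86.3 to 91.8%, which cover counting error only, and TNF replicate 3 was the lowest and TNF replicate 4 the highest of all 8 libraries. The log2 ratio of Mt1 to Mt2 counts was 2.11 ± 0.277 in PBS and 2.05 ± 0.766 in TNF (SD, n = 4), a difference of -0.06 that was smaller than the spread between libraries (exact two-sided permutation, p = 0.914, and 0.914 after adjustment over 2 ratios). Both genes made up a small share of the counts in these cells. By PBS mean in normalized CPM, Mt1 stood above 67.6% of all tested genes and Mt2 above 32.1%. Their share of all counts was 0.00239% ± 0.000443 in PBS libraries and 0.00866% ± 0.00656 in TNF libraries. Without TNF replicate 3 the TNF share was 0.00567% ± 0.00329 (n = 3), and TNF replicate 4 alone was at 0.00204%, the same as PBS replicate 1.

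Counts of Mt2 carry a further limit. Gm45774, a long noncoding RNA gene on the opposite strand, overlaps Mt2, and only 46.3% of the 75-base stretches of the canonical Mt2 transcript are absent from every other gene's transcripts, on both strands. Gm45774 had 105, 143, 67 and 93 counts in PBS and 378, 301, 1179 and 40 in TNF, where Mt2 had 129, 165, 90 and 116 and then 450, 364, 1448 and 57. Mt2 exceeded Gm45774 in all 8 libraries, by a ratio that stayed between 1.15 and 1.42 while Mt2 counts themselves ranged from 57 to 1448. Gm45774 was also called higher, with a log2 fold change of 2.45 (edgeR adjusted p 0.00785). The library kit marks strand, but the sources used here do not state the strand setting of the counting, so reads of the 2 genes cannot be told apart. Summed into 1 feature, they rose by 2.43 on the log2 scale (SE 0.60, edgeR adjusted p 0.00726). The group difference in the log2 ratio of Mt1 counts to this sum was -0.053. The Mt1 shares above and the levels of Mt2 per kb below take Mt2 counts alone. With the counts of Gm45774 added to Mt2, those shares would be lower and those levels higher. All of the Mt1 stretches were unique to Mt1.

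**Figure D2:**
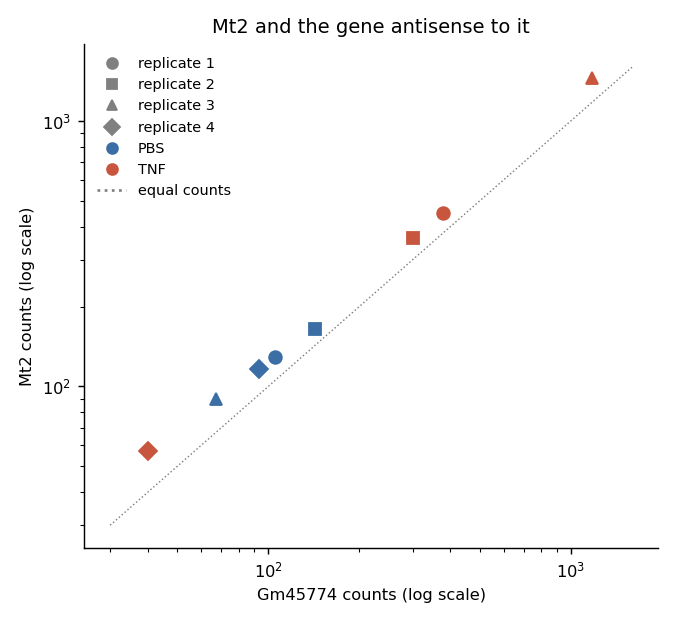
Counts of Mt2 (vertical axis, log scale) against counts of Gm45774 (horizontal axis, log scale), the gene on the opposite strand that overlaps it, in 4 PBS (blue) and 4 TNF (red) libraries. All points lie just above the dotted line of equal counts, from TNF replicate 4 (57 and 40 counts) to TNF replicate 3 (1448 and 1179).

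Mtf1 (ENSMUSG00000028890, chromosome 4, 124695897 to 124743593), the regulator of the metallothioneins, was at 10.7, 11.8, 12.4 and 12.1 normalized CPM in PBS and at 14.0, 16.2, 14.4 and 17.7 in TNF. All TNF libraries were above all PBS libraries, by little. The log2 fold change was 0.40 (SE 0.12, edgeR adjusted p 0.0191), a 1.32-fold rise. Its call was lost without PBS replicate 1 (0.32, edgeR adjusted p 0.0958) or TNF replicate 2 (0.34, adjusted p 0.0794). It was also lost with no filter beyond 1 count (0.35, adjusted p 0.0992) and under scaling by library size alone, which turned the sign (-0.021). Mtf1 shares sequence with 1110065P20Rik on the opposite strand (90.9% of its stretches were unique) and held 1.07 to 1.57 times the counts of that gene, which was not called (log2 fold change 0.47, edgeR adjusted p 0.0816).

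Slc30a1 behaved differently from the metallothioneins. It was at 2.76, 3.12, 2.88 and 2.76 normalized CPM in PBS and at 1.53, 0.865, 3.51 and 1.03 in TNF. TNF replicates 1, 2 and 4 lay below every PBS library, whereas TNF replicate 3 lay above them all. The log2 fold change of -0.69 (SE 0.37) was not called (edgeR adjusted p 0.161), with 12 to 122 counts per library. Without TNF replicate 3 the TNF mean was 1.14 ± 0.344 (SD, n = 3), the log2 fold change was -1.31 and the gene was called lower (edgeR adjusted p 0.00256). Leaving out TNF replicate 4 instead gave -0.53 (edgeR adjusted p 0.235).

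In normalized CPM the libraries took a similar order for these 3 genes within each group. In TNF, replicate 3 was the highest for Mt1, Mt2 and Slc30a1, followed by replicate 1, and replicate 4 was the lowest for Mt1 and Mt2. In PBS, replicate 2 and then replicate 3 were the highest for all 3 genes, although the PBS values of Slc30a1 spanned only 1.13-fold. This PBS order depended on the TMM factors. As plain CPM, Slc30a1 was at 3.47, 3.28, 3.06 and 3.75 in PBS replicates 1 to 4, so replicates 2 and 3 were its lowest. For Mt2, replicate 3 then lay below replicate 1 (3.78 against 4.34). PBS replicates 2 and 3 were also the highest in normalized CPM for Slc30a2, Slc30a4 and Slc39a5. TNF replicate 3 held 6.86 times the PBS mean of Mt1, 12.9 times that of Mt2 and 1.22 times that of Slc30a1. In the same library the summed enterocyte markers were at 39.2 normalized CPM, the lowest of all 8 libraries, and their part in this was not tested. Slc30a2 followed the same order in TNF within a narrower 1.28-fold range. These orders were noted after the values were seen.

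**Figure D3:**
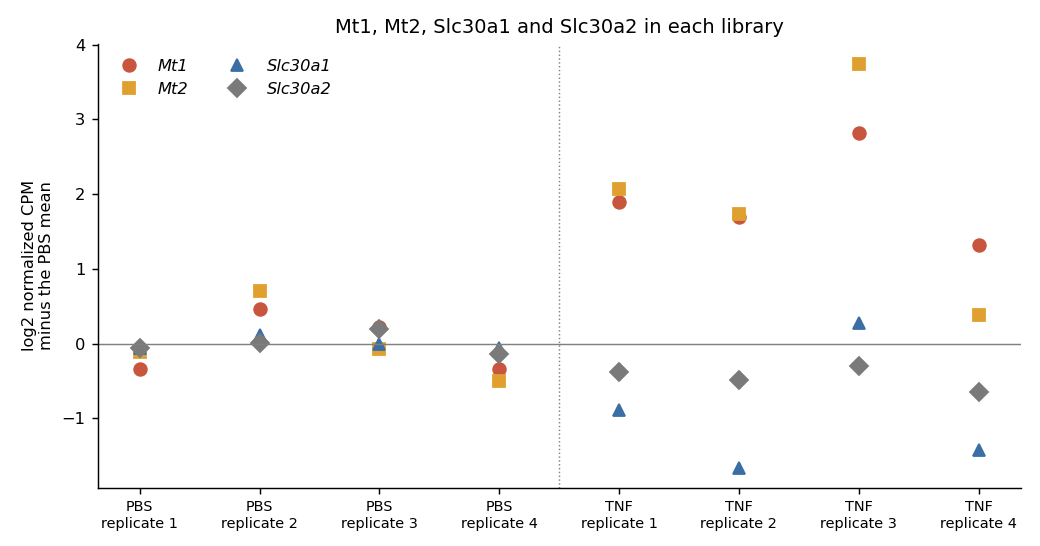
Log2 normalized CPM of Mt1, Mt2, Slc30a1 and Slc30a2 minus each gene's mean over the PBS libraries (vertical axis), in each of the 8 libraries (horizontal axis, the dotted line separating PBS from TNF). TNF replicate 3 is the highest TNF library for all 4 genes, at 2.82 for Mt1, 3.74 for Mt2, 0.28 for Slc30a1 and -0.30 for Slc30a2.

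Slc30a2 (ZnT2, ENSMUSG00000028836, chromosome 4, 134070234 to 134081795), which moves zinc into secretory granules, was the most abundant of the 10 genes in PBS, both in normalized CPM and per kb. It was at 108, 113, 129 and 102 normalized CPM in PBS and at 86.5, 80.0, 91.5 and 71.7 in TNF. No TNF library reached the PBS range. The mean fell from 113 ± 11.5 to 82.4 ± 8.57 (SD, n = 4), or by -0.45 on the log2 scale (SE 0.13, edgeR adjusted p 0.0133). The call was lost without TNF replicate 2 (-0.47, edgeR adjusted p 0.0515) and when libraries were scaled by size alone (-0.80, adjusted p 0.0894), and it was kept without TNF replicate 4 (-0.38, adjusted p 0.0109). Its canonical transcript shares sequence with Extl1 on the opposite strand (56.1% of stretches unique), and it held 8.62 to 16.6 times the counts of Extl1.

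The 2 other SLC30 genes supply zinc to vesicles and the early secretory pathway. Slc30a4 (ZnT4, ENSMUSG00000005802, chromosome 2, 122523004 to 122544845), a transporter of endosomal vesicles, was at 38.2, 40.8, 41.7 and 39.7 normalized CPM in PBS and at 46.6, 57.5, 61.9 and 52.6 in TNF. It was one of the steadiest of the 10 genes in PBS, with an SD of 3.7% of the mean. Its log2 fold change was 0.45 (SE 0.11, edgeR adjusted p 0.00844). That call was lost without PBS replicate 1 (0.40, adjusted p 0.0690), without TNF replicate 2 (0.39, adjusted p 0.0626), with no filter beyond 1 count (0.41, adjusted p 0.0586) and under library size alone (0.068). Slc30a7 (ZnT7, ENSMUSG00000054414, chromosome 3, 115732621 to 115801060), a Golgi zinc transporter, was at 64.9, 61.2, 52.9 and 48.4 in PBS and at 84.0, 96.4, 84.5 and 80.9 in TNF. The groups were well apart, and the 1.52-fold rise (log2 fold change 0.61, SE 0.13) was called (edgeR adjusted p 0.00271) in every fit but that with library size alone (0.23). Only 56.1% of its stretches were unique. It shares stretches with Dph5, Extl2, Gm6649 and Gm43106, which overlap it on the opposite strand, and it held at least 11.5 times the counts of each in every library. It also shares stretches with Elf1, which does not overlap it, and held 1.08 to 2.82 times the counts of that gene. In normalized CPM, Slc30a2 and Slc30a7 thus moved in opposite directions in all 4 TNF libraries. As plain CPM, without TMM factors, Slc30a7 was at 36.25 in TNF replicate 4, below its PBS range of 56.4 to 81.5. Slc30a2 was at 32.1 there, below its PBS range of 119 to 138, so both genes were lower in that library on this scale.

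Slc39a4 and Slc39a5, known as the importers on the luminal and the basolateral side of intestinal epithelium, also moved in opposite directions. Slc39a4 (ZIP4, ENSMUSG00000063354, chromosome 15, 76496580 to 76504172) was at 25.7, 17.7, 21.3 and 20.1 normalized CPM in PBS and at 37.9, 40.8, 28.9 and 27.8 in TNF. Its lowest TNF libraries lay just above its highest PBS library. The mean rose from 21.2 ± 3.38 to 33.9 ± 6.48 (SD, n = 4), by 0.68 on the log2 scale (SE 0.16, edgeR adjusted p 0.00619). Of 17 alternative fits only scaling by library size alone ended this call (0.32, edgeR adjusted p 0.544). Its canonical transcript had 75.1% unique stretches. The lncRNA genes that share the rest, Gm62519 and Gm62526, are absent from the deposited counts, so their reads cannot be told apart from those of Slc39a4.

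Slc39a5 (ZIP5, ENSMUSG00000039878, chromosome 10, 128231799 to 128237121) was at 13.8, 15.9, 17.4 and 11.1 normalized CPM in PBS and at 8.30, 7.86, 6.56 and 9.53 in TNF. All TNF libraries lay below all PBS libraries. The mean fell from 14.5 ± 2.76 to 8.06 ± 1.23 (SD, n = 4), or by -0.86 on the log2 scale (SE 0.17, edgeR adjusted p 0.00208). Slc39a5, Mt1 and Mt2 were the 3 genes called in each of 17 alternative fits, library size alone included (-1.26, adjusted p 0.0057 for Slc39a5). All of its 75-base stretches were unique to it, although Ankrd52 overlaps the gene on the opposite strand. Slc39a5 held 0.185 to 0.653 times the counts of Ankrd52, which was not called (log2 fold change 0.20, edgeR adjusted p 0.212).

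Slc39a14 (ZIP14, ENSMUSG00000022094, chromosome 14, 70540678 to 70588914), an importer of zinc, iron and manganese that is known to be induced by inflammatory cytokines in liver, was not called. It was at 55.0, 58.4, 55.2 and 62.6 normalized CPM in PBS and at 57.6, 56.1, 49.1 and 48.1 in TNF. TNF replicates 1 and 2 lay inside the PBS range, and replicates 3 and 4 below it. The log2 fold change was -0.13 (SE 0.11, edgeR adjusted p 0.354), with values from -0.50 to -0.08 over 17 alternative fits, none of them called. Set against Slc39a4 within each library, the log2 ratio of Slc39a14 to Slc39a4 counts was 1.1, 1.72, 1.37 and 1.64 in PBS and 0.604, 0.459, 0.766 and 0.788 in TNF. The ratio of counts thus went from 2.75 to 1.57 with no overlap between groups. The difference of -0.80 had a two-sided exact permutation p of 0.0286, the smallest that 70 assignments allow, and an adjusted p of 0.0572 over 2 ratios.

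**Figure D4:**
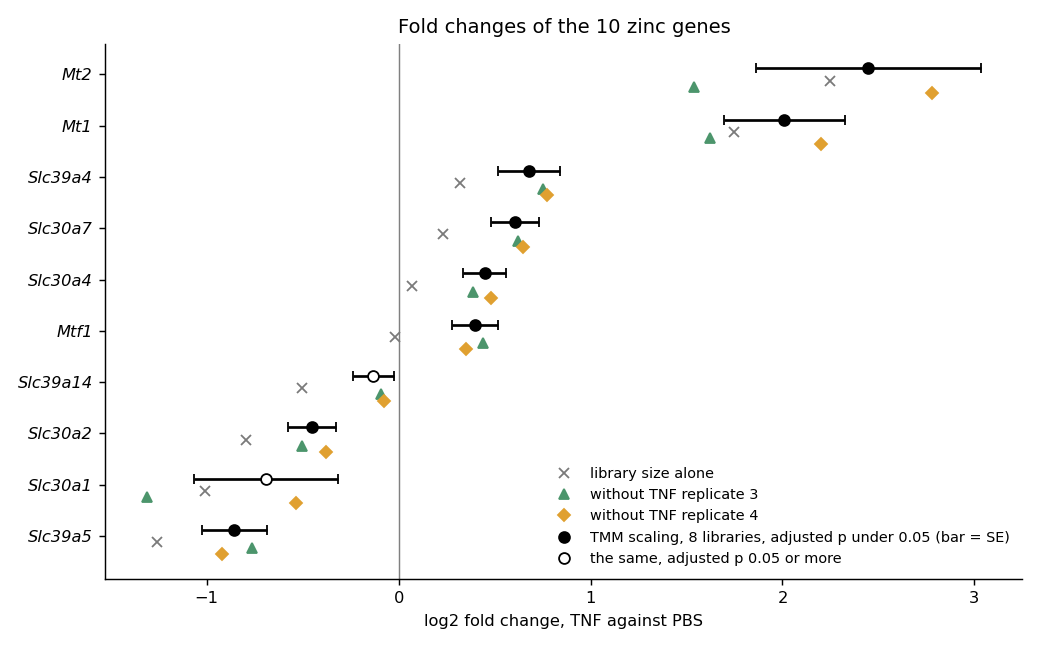
Log2 fold changes of TNF against PBS (horizontal axis) for the 10 zinc genes, as filled circles where called and open circles where not, with bars for the SE, beside the values under library size alone (crosses), without TNF replicate 3 (triangles) and without TNF replicate 4 (diamonds). Slc30a1 spans -1.31 to -0.53 over these settings, and Mtf1 crosses 0 only under library size alone (-0.021).

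Scaling by library size alone shifted the median log2 fold change of all genes by -0.40. It left 3 of the 10 zinc genes called, beside 3182 of all 13368 genes tested. With TMM factors these were 8 of the 10 and 5747 of 13368. As plain CPM, TNF replicate 4 lay below every PBS library for Mt2, Mtf1, Slc30a4, Slc30a7 and Slc39a4, all called higher with TMM factors. Relative to the median of all genes, each of the 10 zinc genes kept its direction under library size alone. Subtracting the median takes out most of the shift between the scalings, so this agreement was nearly given in advance and does not test the directions. Mtf1 for example was at 0.36 above the median, against 0.37 with TMM factors.

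Levels of different genes were compared as normalized CPM per kb of annotated exons. In PBS, Slc30a2 was the highest at 29.2 ± 2.98 and Mt1 was second at 13.5 ± 3.84 (SD, n = 4), neither overlapping the next gene. A middle group followed in the order Slc30a4 (6.80 ± 0.251), Slc39a5 (6.47 ± 1.23), Slc39a4 (5.09 ± 0.812), Slc39a14 (4.78 ± 0.293), Mt2 (4.15 ± 1.6) and Slc30a7 (3.80 ± 0.502), in which each gene overlapped its neighbour. Mtf1 (1.29 ± 0.0813) and Slc30a1 (0.509 ± 0.0302) were the lowest and stood clear of the rest. With the length of the longest transcript in place of all exons, Slc39a14 moved up to rank 3 in PBS, at 9.72 ± 0.596, and stood clear of the genes on either side.

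In TNF the order changed at the top. Mt1 was first at 54.0 ± 26.5, Mt2 came from rank 7 to rank 2 at 22.2 ± 21.4, and Slc30a2 had rank 3 at 21.3 ± 2.22 (SD, n = 4), while Mt1 overlapped Mt2 and Mt2 overlapped Slc30a2. The rank of Mt2 rested on TNF replicate 3 (53.5), as its lowest TNF value was 5.15. Slc30a4 (9.28 ± 1.12) and Slc39a4 (8.13 ± 1.56) overlapped and were clear of Slc30a7 (5.78 ± 0.455) on this scale. Slc39a14 (4.36 ± 0.400) overlapped Slc39a5 (3.59 ± 0.545), which went from rank 4 to rank 8, and Mtf1 (1.71 ± 0.188) and Slc30a1 (0.306 ± 0.215) again came last. The middle of this order depended on the length used. With the longest transcript Slc39a4 (10.1 ± 1.94), Slc30a7 (9.58 ± 0.755), Slc30a4 (9.28 ± 1.12) and Slc39a14 (8.87 ± 0.813) each overlapped the next, and Slc39a14 was clear of Slc39a5 (3.97 ± 0.605).

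**Figure D5:**
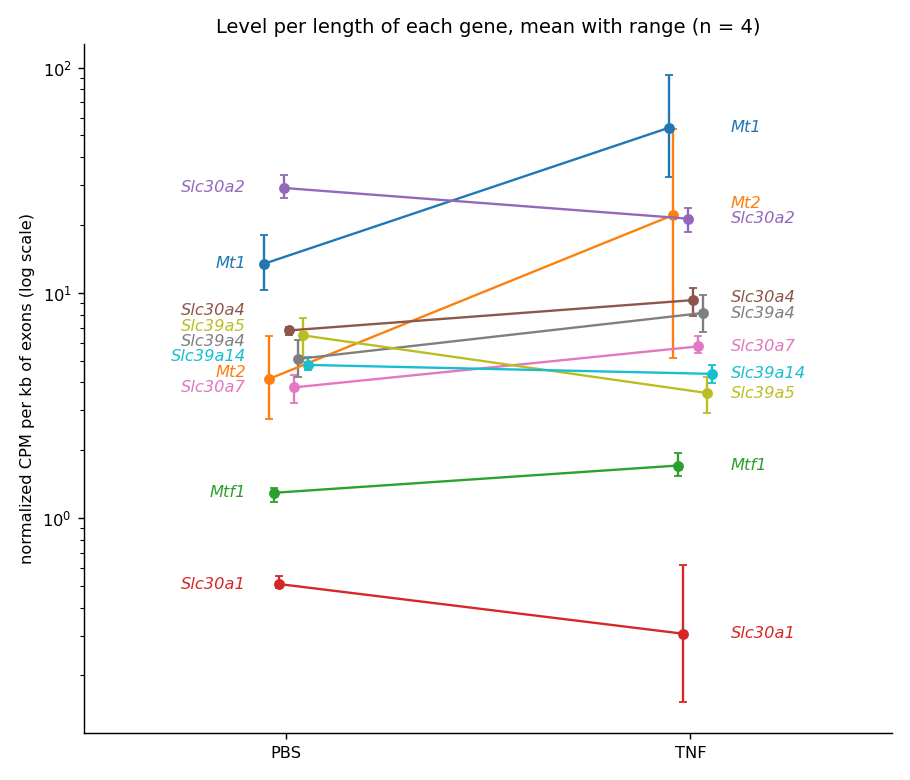
Normalized CPM per kb of annotated exons (vertical axis, log scale) of the 10 zinc genes in PBS and TNF, as means joined by lines with bars for the lowest and highest library (n = 4). Slc30a2 leads in PBS at 29.2, and Mt1 leads in TNF at 54.0.

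The other genes of zinc handling were taken as a list of 24, with the remaining SLC30 and SLC39 genes, Mt3, Mt4, the zinc receptor Gpr39, the vesicular transporter Tmem163 and the zinc-binding proteins Crip1, S100a8 and S100a9. Of these 16 were tested and 6 were called by edgeR, 4 higher and 2 lower, a share (37.5%) close to the 43% of all genes, with a median log2 fold change of 0.25. Slc30a8, Slc39a12, Mt4, S100a8 and S100a9 had 0 counts in every library, which allows up to 3 counts in each, and 3 further genes were too low to test. The highest per kb were Slc39a11 (21.8 in PBS and 19.6 in TNF), Slc39a1 (11.9 and 40.7) and the LIM protein gene Crip1 (11.7 and 14.9). Crip1 was at 26.7 per kb in TNF replicate 4 against 10.4 to 12.1 in the other TNF libraries, and with the length of the longest transcript it came in PBS (14.8) after Slc39a8 (15.1) and Slc39a9 (14.9). Slc39a11 and Crip1 were not called (edgeR adjusted p 0.376 and 0.371).

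Slc39a1 (ZIP1), a widely expressed plasma membrane importer, had the largest change on this list. It was at 48.2, 51.6, 55.8 and 49.7 normalized CPM in PBS and at 157, 196, 179 and 168 in TNF, a 3.41-fold rise or 1.77 on the log2 scale (SE 0.12, edgeR adjusted p 1.63e-06). In TNF it exceeded all 3 SLC39 genes described above, per kb and in normalized CPM. Per kb it already did so in PBS (11.9), whereas in normalized CPM its PBS mean was below that of Slc39a14 (51.3 against 57.8). The other genes called higher were Gpr39 (0.76), Slc39a6 (0.72) and Slc30a6 (0.68), the last of which encodes a partner of Slc30a5 in the early secretory pathway. Slc39a3 (-0.57) and Slc39a13 (-0.68), the latter a Golgi transporter, were called lower. Under library size alone Slc39a1, Slc39a3 and Slc39a13 were called and Gpr39, Slc39a6 and Slc30a6 were not. Mt3, another metallothionein gene, had 18 to 42 counts per library and was not called (edgeR adjusted p 0.693).

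Taking the SLC30 family as a whole, 4 of 7 tested genes were called (57.1%, 3 higher and 1 lower), and of the SLC39 family 6 of 12 were called (50%, 3 higher and 3 lower), beside 43% of all tested genes (23.4% higher and 19.6% lower).

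The genes whose pattern over the 8 libraries was nearest to that of a member were found among 8481 other genes, as the smallest mean absolute difference of log2 normalized CPM after subtraction of each gene's PBS mean. For Mt1 they were Pmepa1 (0.23), Pde12 (0.25) and Pim3 (0.26). Their log2 fold changes of 2.13, 1.91 and 1.71 follow from this choice and are a description. For Slc30a2 they were Trim28 (0.0497), Rnf187 (0.0631) and Tex261 (0.0718), and for Slc39a14 they were Prmt3 (0.042), Prcc (0.0472) and Brd7 (0.0483). The distance between Mt1 and Mt2 was 0.38 on this scale, and the closest pair among the 10 genes was Mtf1 and Slc30a4 at 0.0985.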

How the data were processed

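The file the authors deposited holds raw, unnormalized counts of 55414 Ensembl genes in 8 libraries. The submitters' processing notes name FastQC 0.12, STAR 2.7.10a, DESeq2 and the build mm39. The sources used here do not name the counter, its strand setting or its treatment of shared reads, so counts of overlapping and antisense genes are uncertain. Symbols, coordinates and exon lengths came from GENCODE M39 (GRCm39), which matched 54749 IDs, and the other 665 were kept under their IDs. Genes were tested in edgeR 4.0.16 (R 4.3.3) with TMM factors, filterByExpr, the quasi-likelihood F test, no covariate and Benjamini-Hochberg adjustment over all tested genes, and an adjusted p under 0.05 was a call. The SE was derived from the F statistic. Ratios within libraries used counts plus 0.5. Library depth gives 1 count a value of 0.0226 to 0.0859 normalized CPM, and intervals cover counting error only, since no molecular identifiers are described.

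The members and lists were chosen with earlier results of these data known. The genes named are all 10 members, the called genes and the 3 with the highest level per kb of the other zinc genes, and the 3 nearest patterns for Mt1, Slc30a2 and Slc39a14 (genes with a mean of at least 5 normalized CPM). Gm45774, Mt3 and other overlapping genes were named after their values were seen. Promoter windows were read from GRCm39 before the most downstream start that shares the start codon of the canonical transcript, a choice made after the sequences were seen. A motif of the kappaB type (GGG, any 5 bases, CC, both strands, overlapping matches counted apart) was found in 46.3% of windows, among them those of Mt1, Mtf1, Slc30a1, Slc39a4 and Slc39a5.

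Alternatives were RLE factors, library size alone, scaling without Defa genes, other filters, DESeq2 1.42.0, limma-voom (limma 3.58.1), the replicate number as a block, a threshold of 0.01, and each library left out in turn. The summing of Mt2 with Gm45774 was chosen after seeing the data. The procedure was tested on simulated data.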

Additional observations from a re-analysis of the deposited data

Results flagged for a closer look

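Within each group of 4 libraries, the highest and lowest values of the 10 zinc genes, of the 16 other zinc genes tested and of the 2 ratios were compared with the other 3 libraries, in 56 groups of values. In 4 of them 1 library stood apart by Dixon's criterion, where chance gives about 1 in 20. None was among the 10 zinc genes. Mt3 was at 2.32 normalized CPM in TNF replicate 4 against 0.639 to 0.667 in the other TNF libraries, and without that library it was called lower (log2 fold change -0.77, edgeR adjusted p 0.0339). Crip1 was at 61.2 in TNF replicate 4 against 23.8 to 27.7. Slc30a5 was at 39.6 in PBS replicate 4 against 51.8 to 54.2, and Slc39a13 was at 6.5 in PBS replicate 3 against 7.42 to 7.51.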

How the results depend on the processing

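Under library size alone 3182 genes were called over all genes (757 higher), with 3 of the 10 zinc genes and 3 of the other zinc genes, and the sign turned for Mtf1 (-0.021), Slc30a9 (-0.22), Slc39a8 (-0.059), Slc39a10 (-0.22), Tmem163 (-0.087) and Crip1 (-0.22). Without TNF replicate 4 it turned for Slc39a9 (0.043) and Crip1 (-0.071), whose values ranged from -0.17 to 0.043 and from -0.071 to 0.49 when 1 library was left out. Leaving out 1 library at a time called 4756 to 6922 genes, 5 to 9 zinc genes (5 without TNF replicate 2, 9 without TNF replicate 3, where Slc30a1 was added) and 6 to 9 of the other zinc genes (9 without TNF replicate 4, with Mt3, Slc39a7 and Slc39a8 added). It moved the difference in the log2 ratio of Mt1 to Mt2 from -0.39 to 0.23 (0.037 without PBS replicate 3), and that of Slc39a14 to Slc39a4 from -0.93 to -0.72 with exact permutation p of 0.0286 or 0.0571.

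The replicate numbers are shared between groups, but the labels do not state a pairing. Deviations of equal numbers from their group means correlated across genes at 0.0616, 0.0615, -0.266 and -0.211. Those of unequal numbers correlated at -0.266 to 0.356. With 4 libraries per group these correlations cannot decide whether equal numbers were paired. With the replicate block edgeR called 5087 genes and 8 zinc genes, the same 8 as without it, and the exact sign-flip test of the Slc39a14 to Slc39a4 ratio (-0.80) gave p = 0.125, the smallest 4 pairs allow. A threshold of 0.01 left 6 of the 10 zinc genes, beside 29.2% of all genes (3909). RLE factors, scaling without Defa genes, the filter at 1 CPM, DESeq2 and limma-voom kept the same 8 zinc genes. Depth was low for Slc30a1 (12 to 122 counts per library) and Mt3 (18 to 42).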
